A study of Mus musculus with 3 samples.

Results

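The mature miRNAs numbered miR-6896 to miR-7094 form a block of miRBase, the registry of miRNA names, that is rich in mirtrons. They were chosen by number alone, with either arm and any letter suffix allowed. The block made up 196 of the 1138 mature miRNAs listed, 94 of them 3p arms and 102 of them 5p arms. The 196 rows belong to 144 hairpins, and 52 of these have both arms listed. No row of the table was at 0 in all 3 libraries, so that each listed member had at least 1 read somewhere. The lowest listed number was miR-6896-5p, with 0, 0 and 2 reads on days 0, 1 and 3, and the highest was miR-7093, with 1, 0 and 1 reads of the 3p arm and 0, 1 and 2 reads of the 5p arm. The nearest rows outside the block were miR-6715-3p, with 3, 1 and 0 reads, and miR-7115, with 0, 7 and 5 reads of the 3p arm and 1, 7 and 9 reads of the 5p arm.

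Small RNAs were sequenced from tibialis anterior (TA) muscle of wild-type C57BL/6 mice aged 10 weeks. The day 0 library came from uninjured TA muscle, and the others from TA muscle taken 1 day and 3 days after it was injected with CTX. Cardiotoxin (CTX) is a cobra venom peptide that destroys muscle fibers, after which leukocytes enter and new fibers form from satellite cells. Each time point was 1 library made from 4 pooled samples, so there are no replicates, and every interval given here covers counting error only. The libraries held 8507580, 6421056 and 9795076 reads, and 1 read was worth 0.118, 0.156 and 0.102 counts per 1000000 reads of the library (CPM). The 173 members with a matched sequence are 18 to 25 nucleotides long, and CPM was not corrected for length. Whether members of different sequence are read equally well was not tested.

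A mirtron is a miRNA hairpin that is cut out of a transcript by splicing rather than by the nuclease Drosha. The excised intron lariat is opened, folds into a short hairpin and is cut by Dicer into a 5p and a 3p arm. In a plain mirtron both ends of the hairpin are the splice sites, so that the 5p arm begins with the GU of the intron start and the 3p arm ends with the AG of the intron end. In a tailed mirtron the hairpin lies at 1 end of a longer intron, and the remaining part is trimmed away. Mirtrons are known as miRNAs of low abundance, whose production is tied to the transcription and splicing of the host gene.

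The 13 members with the most reads, or called different between libraries, are given here by arm, except miR-6983-5p, for which no sequence is shown. Capitals mark the seed, bases 2 to 8, which is the part that pairs with a target mRNA. The sequences are those of RefSeq for GRCm38.p6, written 5′ to 3′. The final AG of an intron end is present in 5 of the 7 3p arms.

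miR-7043-3p: aCUGUGCCucucuguuuucag
miR-7085-3p: uAGCUGGCcucuccccaccuuc
miR-7035-3p: uCUGAGCCgcugucccugcag
miR-6944-3p: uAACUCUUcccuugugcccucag
miR-6958-3p: uCAGCUGCcucuugccaucacag
miR-7019-3p: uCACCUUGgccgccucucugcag
miR-6936-3p: cGGCGCGCgcggucgcucacc

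The 5p arms are rich in purines, and 3 of the 5 begin with the GU of an intron start.

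miR-6933-5p: uGGCGGCAgucaggauaccugu
miR-7062-5p: uGGAGGCCagcuuguggagugucu
miR-7091-5p: gUAGGGGUgauagauuccauggc
miR-7068-5p: gUGAGGCUcaguauggggugg
miR-6923-5p: gUGAGGGCaggaggauuggggugu

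A sequence was matched for 953 of the 1138 listed miRNAs, and seeds were compared among these alone. None of the 12 members shown shared its seed with another of them. Across the block, sequences were matched for 173 of the 196 members, and they carried 163 different seeds. A seed was held by more than 1 member in 9 cases, and 6 members had the seed of a miRNA outside the block with a matched sequence. Among these, miR-7002-3p, with 2 reads in all, has the seed UGUGCUU of miR-218-5p, and miR-7069-3p, with 14 reads, has the seed CUGCCCU of miR-18a-3p. Among the listed miRNAs with a matched sequence, no pair of a member and another miRNA was near-identical, taken as at most 2 mismatches over at least 16 bases.

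The bases at the intron ends were common in the 3p arms and rare in the 5p arms. A final AG was found in 61 of 80 3p arms of the block, or 76.3%, as against 9.95% of 372 other 3p arms. The longer CAG of a splice acceptor ended 67.5% of the block's 3p arms and 4.84% of the others. An initial GU was found in 10 of 93 5p arms of the block, or 10.8%, as against 4.50% of 333 other 5p arms. The median pyrimidine content was 71.4% in the 3p arms and 31.8% in the 5p arms, and 54.5% and 50% in the other listed miRNAs. The 5p arms were rich in G, with a median of 42.9% as against 28% in other 5p arms. These are features of sequence alone and use no read count, and they describe a block already known to be rich in mirtrons.

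The positions of the hairpins matched those of tailed mirtrons. Since the block is known to be rich in mirtrons, they describe its annotation and are no independent test. Of the block's hairpins, 123 were matched in RefSeq and placed on the GENCODE M21 gene models of GRCm38. An arm lay within 5 nucleotides of the 3′ end of an intron, but not of its 5′ end, in 106 of them, or 86.2%. Only 7 had arms at both ends, 3 had an arm at the 5′ end alone, 6 lay inside an intron with no arm at its ends, 1 fell in none of these classes and 0 lay in an exon alone. Among the 504 other hairpins, 25 lay at the 3′ end, 240 lay inside an intron and 62 in an exon. Counted by the annotated hairpin, 115 of 123 ended on the very last base of an intron, or 93.5%, as against 2.78% of the other hairpins. Only 8 filled an intron from its first base to its last. The introns with an arm at both ends had a median length of 79 nucleotides (67 to 96), and those with an arm at the 3′ end alone had a median of 461 (75 to 36269).

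**Figure D1:**
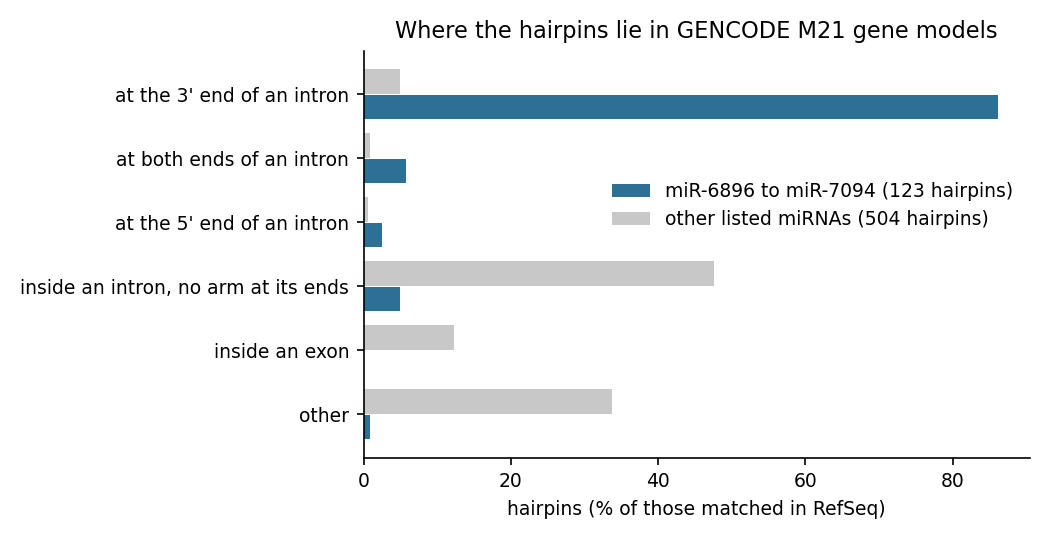
Position of the miRNA hairpins in introns and exons of GENCODE M21, as the percentage (x axis) of the 123 hairpins of the block (blue) and of the 504 hairpins of other listed miRNAs (gray) in each class (y axis). An arm within 5 nucleotides of an intron end counts as at that end, and 86.2% of the block's hairpins lie at the 3′ end of an intron.

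Hairpins of 3 named members are shown whole, with the listed mature arms in capitals, to contrast a hairpin that fills its intron with one at the end of a longer intron. Mir6923 (chr11:67099804-67099875, + strand) fills a 72-nucleotide intron of Myh3, the gene of embryonic myosin heavy chain, which is made in developing and regenerating muscle fibers. Mir6944 (chr13:55477681-55477776, − strand) fills a 96-nucleotide intron of Dbn1, which encodes the actin-binding protein drebrin. Mir7043 (chr6:116645978-116646047, − strand) takes up the last 70 nucleotides of a 1589-nucleotide intron of Rassf4, a member of the Ras association domain family.

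Mir6923: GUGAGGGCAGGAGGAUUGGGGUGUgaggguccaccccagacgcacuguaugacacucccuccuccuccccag
Mir6944: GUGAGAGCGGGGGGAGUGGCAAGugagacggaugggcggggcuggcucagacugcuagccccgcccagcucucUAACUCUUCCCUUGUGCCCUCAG
Mir7043: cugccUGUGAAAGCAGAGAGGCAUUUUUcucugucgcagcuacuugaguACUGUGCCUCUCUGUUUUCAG

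The first 2 hairpins begin with GUGAG, the form of a splice donor, and all 3 end with CAG. Only the 5p arm of Mir6923 was listed, whereas Mir6944 and Mir7043 had both arms.

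The summed level of the block was higher in both injured libraries than on day 0. The members summed to 229, 434 and 520 reads on days 0, 1 and 3. The level was 26.9 CPM in the day 0 library (95% Wilson interval 23.6 to 30.6). It was 67.6 CPM in the day 1 library (61.5 to 74.3) and 53.1 CPM in the day 3 library (48.7 to 57.9), and the 3 intervals do not overlap. The block thus took 0.00269%, 0.00676% and 0.00531% of the reads. The ratio of levels was 2.51 for day 1 against day 0 (exact 95% interval 2.13 to 2.96), 1.97 for day 3 against day 0 (1.69 to 2.31) and 0.785 for day 3 against day 1 (0.690 to 0.894).

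How far the sums differed depends on the scaling of the libraries. Scalings that did not use the full library total lowered every log2 ratio against day 0, and why they did so was not tested. With totals without the 10 most abundant miRNAs the shift was -0.62 for day 1 and -0.51 for day 3. With edgeR's trimmed mean of M values (TMM) that shift was -0.94 for day 1 and -0.93 for day 3, and with DESeq2's median of ratios it was -1.04 and -1.12. The ratio of summed levels for day 1 stayed above 1 under both, with a log2 ratio of 0.38 and 0.29 in place of 1.33. For day 3 it came to 0.05 under TMM and turned to -0.14 under the median of ratios, in place of 0.98. Between the injured days these scalings, and totals without the 10 most abundant miRNAs, moved the log2 ratio by -0.08 to 0.11, and the block stayed lower on day 3 than on day 1. With the deposited expression score that log2 ratio was -0.034 in place of -0.35.

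Other number classes give the background of this sum. In the 207 rows from miR-1000 to miR-6895 the summed level had a ratio of 2.23 for day 1 and 1.26 for day 3 against day 0. In the 618 rows from miR-1 to miR-999 it was 0.945 and 0.884. In the 97 rows numbered above the block it was 1.08 and 4.55, from 57.5, 62.1 and 261.8 CPM. The block without its most abundant member, miR-7043-3p, gave 2.23 and 1.74, from 220, 370 and 441 reads. The differences between these classes were not tested.

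Reads were spread thinly over the members. Over the 3 libraries the block held 1183 reads, with a median of 2 per member as against 43 per row elsewhere. A single read was all that was found of 61 members, 105 had 2 to 9 reads, and 30 had 10 or more. Only 4 members reached 20 reads in any library. The member with the most reads, miR-7043-3p, held 12.8% of the block's reads, the 3 with the most held 21.6%, and the 10 with the most held 37.1%.

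More members were detected after injury. At least 1 read was found for 81 members on day 0, 118 on day 1 and 140 on day 3, or 41.3%, 60.2% and 71.4% of the 196. Brought to the depth of the smallest library, the expected numbers were 69.9, 118 and 114, so that the difference between the injured days came with the difference in depth, while day 0 remained lowest. Depth here means total reads. The difference in composition between the libraries, with TMM factors of 0.649, 1.25 and 1.23, was not taken out, so its part in the lower number of day 0 was not tested. At a minimum of 3 reads the numbers were 24, 51 and 48, and at 10 reads they were 3, 7 and 8. Over all listed miRNAs the shares detected were 68.9%, 80.4% and 86.7%. The rows from miR-1000 to miR-6895 also had their lowest share detected on day 0, with 62.3%, 75.4% and 83.6%, as did those from miR-1 to miR-999, with 83.2%, 91.3% and 93.7%, and those numbered above the block, with 43.3%, 60.8% and 77.3%.

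Detection in all 3 libraries was found for 38 members, which together held 649 of the 1183 reads. Another 40 members were seen on days 1 and 3 but not on day 0, with 249 reads, and 12 were seen on days 0 and 1 only and 15 on days 0 and 3 only. A single library accounted for 16 members on day 0, with 1 read each, 28 members on day 1 and 47 on day 3. A member at 0 reads is not shown to be absent. A count of 0 allows up to 3 reads, which is 0.353, 0.467 or 0.306 CPM in the libraries of days 0, 1 and 3.

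**Figure D2:**
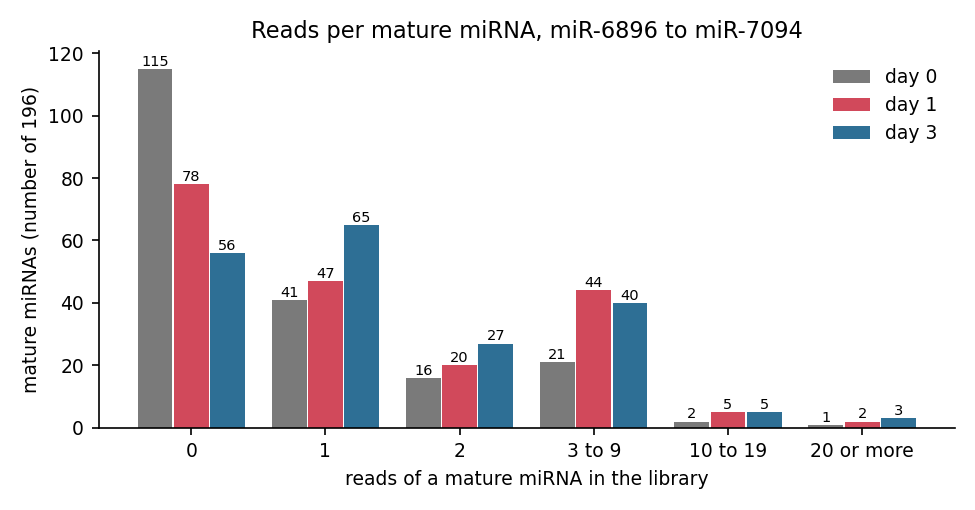
Number of the 196 members (y axis, printed above each bar) by the reads of a member in a library (x axis), for day 0 (gray), day 1 (red) and day 3 (blue). The bar at 0 reads falls from 115 members on day 0 to 78 on day 1 and 56 on day 3, and at most 3 members of a library reach 20 reads.

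The share of the block's reads that came from 3p arms differed between the libraries. This share pools the reads of different hairpins. A change of arm within a hairpin was not tested apart from a change in which hairpins gave the reads. The 3p arms summed to 170, 258 and 243 reads, and the 5p arms to 59, 176 and 277 reads. The 3p share of the reads was 74.2% on day 0 (Wilson interval 68.2 to 79.5). It was 59.4% in the day 1 library (54.8 to 64.0) and 46.7% in the day 3 library (42.5 to 51.0), and these intervals do not overlap. This share does not depend on the scaling, since both arms are read in the same library. The odds that a read came from a 5p arm were 1.97 times higher on day 1 than on day 0 (exact 95% interval 1.36 to 2.85), 3.28 times higher on day 3 than on day 0 (2.30 to 4.71), and 1.67 times higher on day 3 than on day 1 (1.28 to 2.18).

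As levels, the 5p arms came to 6.93, 27.4 and 28.3 CPM and the 3p arms to 20.0, 40.2 and 24.8 CPM. The 5p level was 3.95-fold higher on day 1 (2.93 to 5.40) and 4.08-fold higher on day 3 (3.07 to 5.50) than on day 0, and the injured days had a ratio of 1.03 (0.851 to 1.25). The 3p level was 2.01-fold higher on day 1 (1.65 to 2.45) and 1.24-fold higher on day 3 (1.02 to 1.52). With TMM the 5p arms stood at 10.7, 21.9 and 22.9 CPM and the 3p arms at 30.8, 32.2 and 20.1 CPM, so that the 5p level was still higher after injury while the 3p level on day 3 fell below that of day 0. The 5p arms detected were 32, 58 and 78 of 102, and the 3p arms 49, 60 and 62 of 94. At the depth of the smallest library the expected numbers were 27.2, 58 and 63.6 for 5p arms and 42.6, 60 and 50.2 for 3p arms.

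The 3p share also fell when the most changed members were left out. Without the 7 members called different between libraries, the shares were 69.7%, 58.0% and 45.4%, and the odds of a 5p read for day 3 against day 0 were 2.77 (1.87 to 4.11). When any 1 hairpin was left out, the share ranged from 71.1% to 76.4% on day 0, from 52.7% to 62.2% on day 1 and from 37.3% to 50.5% on day 3. The lowest values on days 1 and 3 were those without miR-7043, whose reads are nearly all 3p. Over all listed miRNAs the 3p share was 71.4%, 58.3% and 56.6%. In the rows from miR-1 to miR-999 it was 76.3%, 65.9% and 68.3%, likewise lower on both injured days, and in the rows from miR-1000 to miR-6895 it was 21.8%, 24.2% and 20.5%. In the rows numbered above the block it was 87.9%, 70.1% and 87.9%, lowest on day 1, and a single row held most reads of that class on days 0 and 3.

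**Figure D3:**
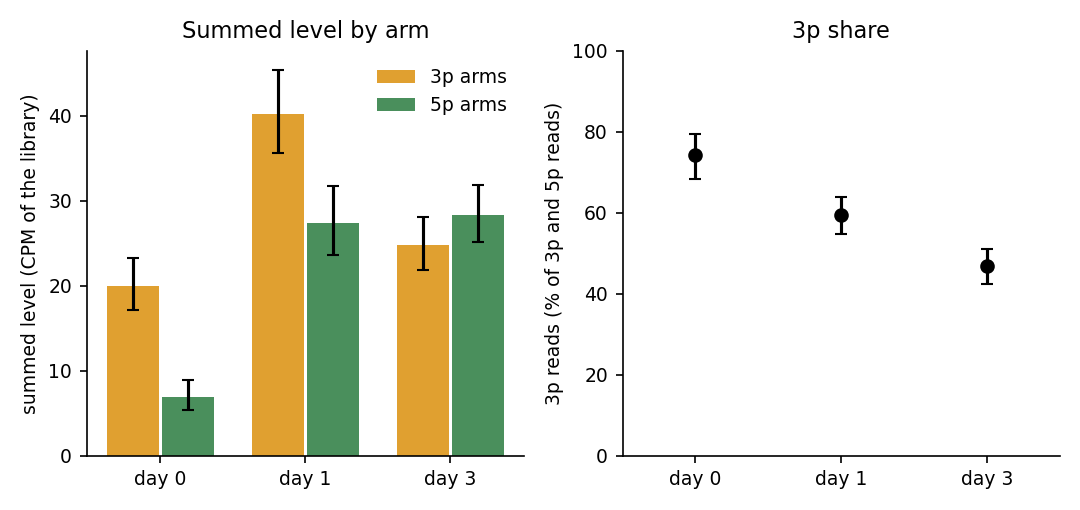
Left, summed level of the 3p arms (orange) and 5p arms (green) of the block in CPM (y axis) on each day (x axis), and right, the 3p share of the block's reads in percent (y axis) on each day. Bars of error are 95% Wilson intervals for counting error in 1 library per day, and the share falls from 74.2% to 59.4% and 46.7%. With TMM scaling the 3p level of day 3 lies below that of day 0.

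Single hairpins differed widely in the arm they used. Summed over the 3 libraries, 17 of the 52 hairpins with both arms listed had more 3p reads, 25 had more 5p reads and 10 had equal numbers. Among the 23 of these with at least 10 reads, 11 had more 3p reads, 11 had more 5p reads and 1 had equal numbers. miR-7043 gave 152 reads of the 3p arm and 4 of the 5p arm, a 3p share of 97.4% (93.6 to 99.0). miR-6933, at the other extreme, gave 1 read of the 3p arm and 61 of the 5p arm.

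The hairpin miR-7062 gave 43 reads of the 5p arm and 3 of the 3p arm, and miR-7091 gave 26 and 4. By contrast, miR-6944 gave 27 reads of the 3p arm and 3 of the 5p arm, and miR-6958 gave 23 and 1. Only 2 hairpins had 10 or more reads of each arm. miR-6983 had 1, 4 and 6 reads of the 3p arm and 0, 8 and 12 of the 5p arm on days 0, 1 and 3. miR-6994, at the end of an intron of Patl1, which encodes a factor of mRNA decapping, had 2, 3 and 5 reads of either arm. The 2 arms of miR-6994 thus had the same count in each library.

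The level of each member was then compared between libraries with Fisher's exact test, adjusted by the Benjamini-Hochberg method over all listed miRNAs with a read in either library. A call needed a fold of 2 and an adjusted p of at most 0.001, the thresholds of the study. The test compares 2 libraries, not conditions. Against day 0, 5 of 149 members tested were called higher on day 1 and 1 was called lower, or 3.36% and 0.671%, where 25.1% and 4.31% of all miRNAs tested were called. On day 3, 4 of 168 members were called higher and 1 lower, or 2.38% and 0.595%, where 26.1% and 4.36% of all were called. Between day 3 and day 1, 0 of 180 members were called higher and 2 were called lower, or 1.11% lower, where 9.6% and 7.16% of all were called. At an unadjusted p under 0.05, Fisher's test gave 18, 18 and 15 members in either direction in the 3 comparisons, and 493 of 998, 518 of 1056 and 434 of 1104 of all miRNAs tested.

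The shares called lay under the background, and few members had the reads that a call needs. A member at 0 reads on day 0 needed at least 10 reads on day 1 or 13 reads on day 3 to be called higher. Only 14, 12 and 24 of the members tested had enough reads in the 2 libraries for any call. Taken by level alone, 108 of 149 members were higher in CPM on day 1 than on day 0, or 72.5%, as against 73.3% of all miRNAs tested. Of these 149, 68 were at 0 on day 0 and could only count as higher, and 31 at 0 on day 1 only as lower. Among all 998 miRNAs tested, these numbers were 214 and 83. On day 3, 113 of 168 members were higher than on day 0, or 67.3%, as against 73.7%. Of these 168, 87 were at 0 on day 0 and 28 at 0 on day 3. Between day 3 and day 1, 85 of 180 were higher on day 3, or 47.2%, as against 51.4%. Of these 180, 62 were at 0 on day 1 and 40 at 0 on day 3. These shares, and the medians that follow, include members tested only through reads in 1 library, so no direction is drawn from them. With 1 CPM added to each level, the median log2 difference of the members was 0.21 for day 1 and 0.14 for day 3 against day 0, where that of all miRNAs tested was 0.39 and 0.27.

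The 7 members called in any comparison fell into several patterns. miR-7043-3p, miR-6933-5p and miR-7062-5p were called higher on both injured days, and miR-7085-3p was called lower on both. miR-7068-5p and miR-6936-3p were called higher on day 1 and lower on day 3 than on day 1, and miR-6923-5p was called higher on day 3 alone. Under another scaling, each of the 7 but miR-7043-3p and miR-7085-3p lost at least 1 call against day 0. With an assumed coefficient of variation of 0.4 between samples, 0 members were called in any comparison.

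miR-7043-3p, from the Rassf4 intron, had 9, 64 and 79 reads on days 0, 1 and 3. In CPM its levels were 1.06, 9.97 and 8.07, and the interval of day 0 lay below those of both injured days. The level was 9.42-fold higher on day 1 (4.67 to 21.5, Fisher's exact test, adjusted p = 1.03e-14) and 7.62-fold higher on day 3 (3.82 to 17.3, Fisher's exact test, adjusted p = 1e-12). Between the injured days the ratio was 0.809 (0.575 to 1.14, Fisher's exact test, adjusted p = 0.451). It was called on both days under every scaling tried.

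miR-6933-5p had 2, 20 and 39 reads, or 0.235, 3.11 and 3.98 CPM. Its hairpin (chr11:118002270-118002350, + strand) ends on the last base of a 635-nucleotide intron of Pgs1, which encodes an enzyme of cardiolipin synthesis, but its 3p arm stops 7 nucleotides short of that base. The level was 13.2-fold higher on day 1 (3.22 to 117, Fisher's exact test, adjusted p = 1.15e-05) and 16.9-fold higher on day 3 (4.38 to 145, Fisher's exact test, adjusted p = 2.93e-08). With TMM the day 1 call was lost (adjusted p = 0.00492, exact binomial test) and the day 3 call was not.

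miR-7062-5p was at 0 reads on day 0 and had 13 reads on day 1 and 30 on day 3. These are 2.02 and 3.06 CPM, at least 5.74-fold higher on day 1 (Fisher's exact test, adjusted p = 5.06e-05) and at least 8.69-fold higher on day 3 (adjusted p = 3.41e-08, same test) than the 3-read limit of day 0. Its hairpin (chr7:139986809-139986874, − strand) takes up the last 66 nucleotides of an 84-nucleotide intron of Adam8, which encodes a membrane metalloproteinase found on leukocytes. The day 1 call was lost with TMM and with the median of ratios.

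miR-7085-3p, the only member called lower than on day 0, had 30, 4 and 3 reads. Its levels were 3.53, 0.623 and 0.306 CPM, and on day 0 it was the most abundant of all 196 members. The level was 5.66-fold lower on day 1 (1.99 to 22.1, Fisher's exact test, adjusted p = 0.000462) and 11.5-fold lower on day 3 (3.58 to 59.0, Fisher's exact test, adjusted p = 3.87e-07). Its hairpin (chr9:44400423-44400488, + strand) ends an intron of Slc37a4, which encodes the glucose-6-phosphate transporter of the endoplasmic reticulum. Its 5p arm had 2, 0 and 3 reads.

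miR-7068-5p had 0, 14 and 1 reads. The day 1 level of 2.18 CPM was at least 6.18-fold higher than the limit of day 0 (Fisher's exact test, adjusted p = 2.22e-05), and the day 3 level was 21.4-fold lower than that of day 1 (3.25 to 903, Fisher's exact test, adjusted p = 8.72e-05). Its hairpin (chr8:72470016-72470089, − strand) fills a 74-nucleotide intron of Cherp, which encodes a calcium homeostasis protein of the endoplasmic reticulum. miR-6936-3p had a like pattern, with 0, 12 and 0 reads.

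The day 1 level of miR-6936-3p, 1.87 CPM, was at least 5.30-fold higher than the limit of day 0 (Fisher's exact test, adjusted p = 0.000115), and day 3 was at least 6.10-fold lower than day 1 (adjusted p = 5.94e-05, same test). The other arm of this hairpin had 2, 3 and 3 reads, so that the 3p arm was found only in the library of day 1 while the 5p arm was found in all 3. The hairpin (chr11:120624823-120624876, − strand) begins on the first base of a 66-nucleotide intron of Sirt7, which encodes a nuclear sirtuin deacetylase, and lies within an exon of another Sirt7 transcript. The call of both miR-7068-5p and miR-6936-3p against day 0 was lost with TMM, whereas the calls of day 3 against day 1 were not.

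miR-6923-5p, from the intron of the embryonic myosin gene Myh3, was at 0 reads on days 0 and 1 and had 13 reads on day 3. Its day 3 level of 1.33 CPM was at least 3.76-fold higher than the limit of day 0 (Fisher's exact test, adjusted p = 0.000909) and at least 2.84-fold higher than that of day 1 (adjusted p = 0.00837, not called). The call was lost with TMM, with the median of ratios and without the 10 most abundant miRNAs. No level of Myh3 mRNA was measured in these libraries.

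**Figure D4:**
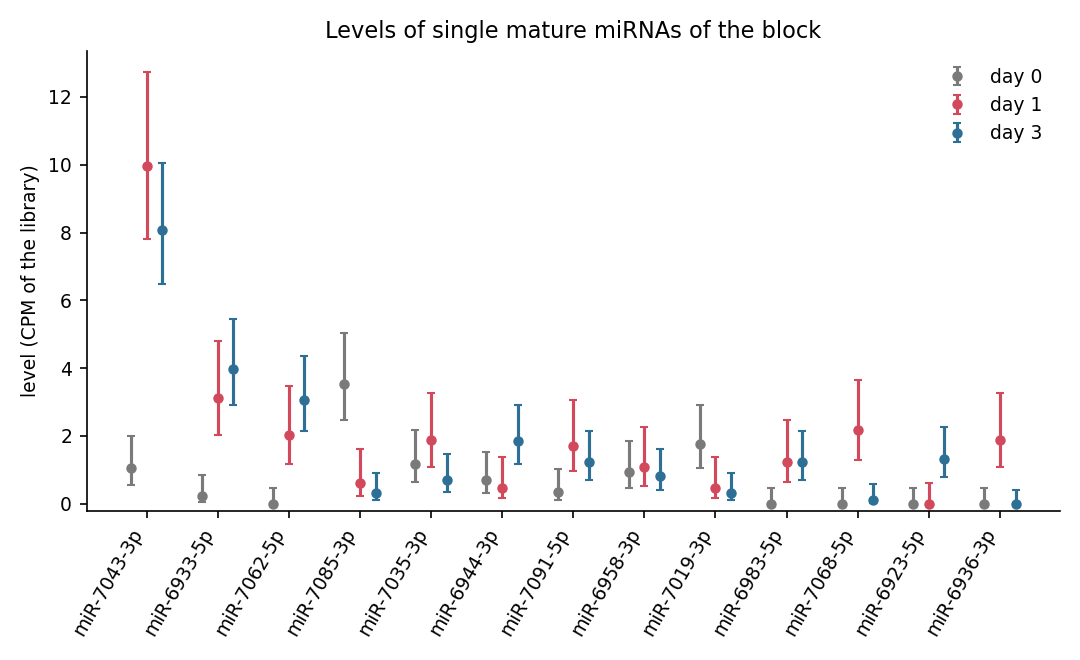
Level in CPM (y axis) of the 13 members with the most reads or called in a comparison (x axis), on day 0 (gray), day 1 (red) and day 3 (blue), with 95% Wilson intervals for counting error in 1 library per day. miR-7043-3p stands at 1.06, 9.97 and 8.07 CPM, and miR-7085-3p at 3.53, 0.623 and 0.306 CPM.

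The other abundant members were not called at these thresholds. miR-7019-3p, from the end of an intron of Pink1 (chr4:138316132-138316200, − strand), the gene of a mitochondrial kinase of mitophagy, had 15, 3 and 3 reads. Its level was 5.76-fold lower on day 3 than on day 0 (1.63 to 31.0, Fisher's exact test, adjusted p = 0.00429), and it was called lower on day 3 with TMM, with the median of ratios and without the 10 most abundant miRNAs. miR-6983-5p had 0, 8 and 12 reads, with adjusted p of 0.00304 for day 1 and 0.00169 for day 3 by Fisher's exact test. Both thus lay close to the threshold, in opposite directions.

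miR-7091-5p, from a hairpin that fills a 79-nucleotide intron of the nuclease gene Dnase1l1 (chrX:74274027-74274105, − strand), had 3, 11 and 12 reads. Its adjusted p was 0.0276 for day 1 and 0.132 for day 3 by Fisher's exact test. miR-6944-3p, from the Dbn1 intron, had 6, 3 and 18 reads, and its level on day 3 was 2.61 times that of day 0 (0.991 to 8.02, Fisher's exact test, adjusted p = 0.0846). Neither was called.

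miR-7035-3p, from the end of an intron of Rasa4 (chr5:136105522-136105603, + strand), which encodes a Ras GTPase-activating protein, had 10, 12 and 7 reads. miR-6958-3p, from a hairpin that fills a 73-nucleotide intron of Dennd6b (chr15:89185465-89185537, − strand), had 8, 7 and 8 reads. In both members the counting intervals of the 3 libraries overlapped.

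The reads of the block came mostly from hairpins at the 3′ end of an intron. The 142 members of such hairpins had 19.5, 43.6 and 33.9 CPM on days 0, 1 and 3, with 479 reads of 3p arms and 299 of 5p arms. The 12 members of hairpins at both ends of an intron had 2.35, 6.23 and 6.13 CPM, with 64 reads of 3p arms and 56 of 5p arms. The 8 members inside an intron had 0.588, 4.36 and 5.00 CPM, with 2 reads of 3p arms and 80 of 5p arms, and 61 of these 80 were of miR-6933-5p.

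A few mirtrons carry older numbers, and miR-877, miR-702 and miR-1224 were taken as a list beside the block. Of the 5 listed arms, 2 were called higher on day 1 and 3 on day 3 against day 0, where 25.1% and 26.1% of all miRNAs tested were called higher, and 0 were called lower. miR-877-5p had 109, 218 and 445 reads, or 12.8, 34.0 and 45.4 CPM, more than any member of the block. miR-702-3p had 2, 18 and 21 reads. The 5 arms summed to 16.1, 42.0 and 55.5 CPM.

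Marker miRNAs of other cell types also differed between the libraries. The 5 leukocyte miRNAs taken as markers (miR-223-3p, miR-142a-3p, miR-142a-5p, miR-150-5p and miR-155-5p) summed to 5009, 18919 and 6677 CPM, and 3 of the 5 were called higher on each injured day. Most of the sum on day 0 was miR-150-5p, at 4733, 8307 and 3197 CPM and not called against day 0, whereas miR-223-3p, which was called on both days, stood at 97.8, 7815 and 1896 CPM. The 6 myofiber miRNAs, among them miR-1a-3p and miR-206-3p, summed to 274411, 91697 and 277531 CPM, with 5 called lower on day 1, and 4 called lower and 1 higher on day 3. The one called higher was miR-206-3p, at 12384, 4781 and 180001 CPM, and the other 5 summed to 262027, 86916 and 97529 CPM. Endothelial markers summed to 59427, 132923 and 58732 CPM, and erythroid markers to 7142, 25326 and 12560 CPM. In each of these 2 lists, 2 of 2 markers were called higher on day 1 and 0 on day 3 against day 0. Of all miRNAs tested, 25.1% and 26.1% were called higher on days 1 and 3, and 4.31% and 4.36% lower. No marker was at 0 in any library, and the part of these shifts in the levels of the block was not tested. In whole muscle, fewer cells of a type and less RNA per cell cannot be told apart.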

How the data were processed

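Small RNAs of 18 to 30 nucleotides from pooled TA muscle were sequenced at BGI on the BGISEQ platform. The authors deposited for each library the read count per mature miRNA, without normalization, made from reads aligned to GRCm38.p6, and the submitters' processing notes name HISAT and Bowtie2. The authors also deposited an expression score, whole numbers never above the read count, whose making is not given in the sources used here. It served only as an alternative. It is not in the form of FPKM, the unit named in the paper.

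Members were taken by number from the row names, and these members and the lists of markers and other mirtrons were chosen with earlier results of these data known. Reads were scaled to the library total as CPM. Members are named in the text if they had 20 reads in a library, were among the 10 with the most reads, were called, had 10 reads of each arm, or lay at the ends of the block. Ratios have exact conditional intervals and shares Wilson intervals, both of 95%. A level set against 0 reads was also given as a multiple of 3 reads in that library. Such a multiple leaves out the counting error of the level itself. Calls came from Fisher's exact test, two-sided (scipy 1.17.1), at a fold of 2 and an adjusted p of 0.001. Since the labels give 1 library per time point, no spread between samples could be estimated. Reads without molecular identifiers are not independent molecules.

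Alternatives were edgeR 4.0.16 TMM factors, DESeq2 1.42.0 median of ratios, totals without the 10 most abundant miRNAs, the deposited score, a minimum of 10 reads, a pseudocount of 1 CPM, a fold of 4, an adjusted p of 0.05, and the exact test of edgeR, assuming a coefficient of variation of 0.2 or 0.4. The calling was tested on simulated data with 4-fold increases and counting error alone. Decreases and spread between samples were not simulated, so recovery in real libraries was not tested. At a mean of 1 to 10 reads in the earlier library, few changes were recovered. The shares were 2.5% for day 1 and 10% for day 3 against day 0, and 11% for day 3 against day 1. At 10 to 50 reads they were 90.9%, 98.7% and 96.7% in the same order. Hairpins and sequences came from RefSeq tables of GRCm38.p6, and introns from GENCODE M21.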

Additional observations from a re-analysis of the deposited data

Results flagged for a closer look

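Only the members named in the report were screened, and in 5 of them the 2 injured days departed from day 0 in different ways. miR-7068-5p and miR-6936-3p were called lower on day 3 than on day 1 by Fisher's exact test. In reads scaled to the library total, the log2 ratio of day 3 to day 1 was -4.42 for miR-7068-5p, and miR-6936-3p had 12 reads on day 1 and 0 on day 3. For the other 3, the CPM level was above day 0 on 1 injured day and below it on the other, and the difference between the injured days did not pass the test. That log2 ratio of day 3 to day 1 was 1.98 for miR-6944-3p, -1.39 for miR-7035-3p and -0.42 for miR-6958-3p. With TMM, miR-7035-3p and miR-6958-3p were below day 0 on both injured days, with log2 ratios of -0.28 and -1.64 and of -0.73 and -1.13, and likewise with the median of ratios, so the opposite directions of these 2 hold only for some scalings. miR-6944-3p kept opposite directions with both, at -1.54 and 0.46 with TMM. With 1 library per day, whether these differences exceed the spread between mice was not tested.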

How the results depend on the processing

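The count of members called higher on day 1 against day 0 was 5, and it was 1 with TMM, 1 with the median of ratios, 14 at an adjusted p of 0.05, and 2 and 0 with an assumed coefficient of variation of 0.2 and 0.4. Over all miRNAs the count moved in the same direction each time, from 250 to 129, 118, 306, 162 and 28 in the same order. The count lower on day 1 was 1, and it was 2 with the median of ratios, 2 at an adjusted p of 0.05 and 0 with either assumed coefficient (all miRNAs 43, and 121, 58, 12 and 1). On day 3 the count higher was 4, and it was 7 at an adjusted p of 0.05 and 0 with a coefficient of 0.4 (all miRNAs 276, and 328 and 54). The count lower on day 3 was 1, and it was 2 with TMM, with the median of ratios, without the 10 most abundant miRNAs and at an adjusted p of 0.05, and 0 with a coefficient of 0.4 (all miRNAs 46, and 109, 124, 79, 57 and 0). For day 3 against day 1, an adjusted p of 0.05 gave 2 higher and 9 lower in place of 0 and 2, and either assumed coefficient gave 0 lower (all miRNAs 106 higher and 79 lower, then 128 and 109, and 26 and 3 lower).

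The summed level on days 0, 1 and 3 was 41.5, 54.1 and 43.0 CPM with TMM, 44.3, 54.1 and 40.3 with the median of ratios, 101.7, 166.5 and 141.0 without the 10 most abundant miRNAs, and 88.3, 143.8 and 140.5 per 1000000 of the deposited score. Members with the intron-end bases alone (a 5p arm that begins with GU or a 3p arm that ends in AG) gave 13.0, 33.3 and 24.9 CPM, and without miR-7043-3p days 1 and 3 had 57.6 and 45.0 CPM. The log2 ratio for day 1 against day 0, 1.33, was 0.38 with TMM, 0.29 with the median of ratios, 0.71 without the 10 most abundant and 0.70 with the score. For day 3 against day 0, 0.98 became 0.054, -0.14, 0.47 and 0.67 in the same order, so it reversed with the median of ratios. For day 3 against day 1, -0.35 became -0.034 with the score. The reversal comes with the shift that this scaling gives to every miRNA, and which scaling is nearer to the tissue was not tested.

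Members with at least 3 reads numbered 24, 51 and 48, and with at least 10 reads 3, 7 and 8. The 3p share was 60.5% on day 0 and 50.8% on day 1 with each detected arm counted once, and 53.5% on day 1 over hairpins with both arms listed. Without the hairpin miR-7043, which gives the lowest share of all hairpins left out in turn, it was 52.7% on day 1 and 37.3% on day 3. The settings that left out hairpins in turn or the 7 called members were chosen after seeing the data. The share fell from day 0 to day 1 to day 3 under each of these settings. No paired analysis was possible because each time point has 1 library. Of the 13 calls of members in the 3 comparisons, each was lost under at least 1 of the 10 alternatives. Of 38 log2 ratios of named members with reads in both libraries, 9 changed sign under at least 1 alternative, and 0 of these changes were in ratios with an adjusted p of at most 0.05. Depth limits the block throughout: a member at 0 on day 0 needed 10 reads on day 1 to be called.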
